A study of Mus musculus with 7 samples.

Results

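Genes linked to the splenic macrophages that take up, break down and return the iron of old red cells were followed in 7 whole mouse spleens. The set comprised 10 genes, Spic, Hmox1, Slc40a1, Slc11a1, Cd163, Vcam1, Blvrb, Fth1, Ftl1 and Treml4. They were chosen by symbol, and all 10 were found among the 24062 genes of the deposited tables and passed the filter on low counts. The mutant group held enlarged spleens of 3 mice with the genotype Vav1-iCre;Brca1F22-24/F22-24, in which a Cre recombinase driven by Vav1 sequences acts in blood cells, from the stem cell on, upon a Brca1 allele named for exons 22 to 24. The control group held spleens of 4 C57BL6 mice labelled Brca1+/+, with no Cre or altered allele named, and the age given for both groups was 2 to 3 months. Cre, the altered allele, spleen enlargement and any difference in strain go with the group and cannot be told apart. Each library is labelled as a spleen of its own, with no word on litters or on how animals were matched, and the p-values speak only of the spread among these 7 organs.

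Red pulp macrophages of the spleen engulf aged red cells. Haemoglobin is digested in the phagosome, heme oxygenase opens the heme ring and frees the iron, and the iron is either stored in ferritin or leaves the cell through ferroportin to be carried on transferrin to the marrow. Heme itself induces Spic, the transcription factor these macrophages depend on, by relieving repression by Bach1, and iron-regulatory proteins set the translation of ferritin and ferroportin through a hairpin in the leader of their transcripts.

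That hairpin, the iron-responsive element, is shown because 3 of the 10 genes carry it and because it acts after transcription, on a step that transcript counts do not read. A search of GENCODE M21 transcripts (GRCm38, the assembly of mm10) looked for a bulged C, a stem of 5 pairs, the loop CAGTGN with a last base other than G, and the closing stem. It found the element in the 5′ untranslated region of 21 of 20544 genes (0.102%), among them Fth1, Ftl1 and Slc40a1. Capitals mark the bulged C and the loop in each 30-base window, written 5′ to 3′.
Fth1, chr19:9982731-9982760, plus strand: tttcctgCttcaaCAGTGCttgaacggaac
Ftl1, chr7:45459779-45459808, minus strand: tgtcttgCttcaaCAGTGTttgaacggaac
Slc40a1, chr1:45925465-45925494, minus strand: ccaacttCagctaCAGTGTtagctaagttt
Tfrc, the transferrin receptor through which cells take up iron, carries the element in the 3′ untranslated region instead, where binding protects the transcript from decay. The same search found 4 copies there. Its pattern allows no unpaired base in the stem of 5 pairs, so elements that depart from it would be missed. The first copy is given for comparison.
Tfrc, chr16:32631218-32631247, plus strand: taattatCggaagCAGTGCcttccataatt

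The iron recycling genes differed widely among the 3 mutant spleens. Mutant spleen 1 held 6 of them (Spic, Hmox1, Slc40a1, Vcam1, Fth1 and Ftl1) at 77.4% to 122% of the wild-type mean. Mutant spleen 2 held 9 of the 10 at 22.2% to 62.5% and Cd163 at 4.36%, and mutant spleen 3 held 7 of the 10 at 22.2% or less. Only Cd163, the receptor for haemoglobin bound to haptoglobin, passed the test over all genes, and it fell 9.50-fold. In edgeR's quasi-likelihood test 1 of the 10 genes was called lower and 0 higher at an adjusted p under 0.05, where 28.9% of the 15188 genes tested were called lower and 28.5% higher. The median log2 fold change of the 10 was -0.92, beside -0.02 over all genes tested. Without mutant spleen 1 the test called 6 of the 10 lower (Hmox1, Slc40a1, Slc11a1, Cd163, Vcam1 and Ftl1), against 31.4% of genes, and without mutant spleen 3 it called 3 (Slc11a1, Cd163 and Treml4), against 27.9%. Some other methods over all 7 spleens called Slc11a1 and Cd163, namely RLE size factors (28.2% of genes called lower), library size alone (33.8%), DESeq2 (26.9%), edgeR's exact test (29.2%) and limma on the deposited CPM (30.8%). Limma-voom called Vcam1 and Treml4 besides (30.9%). With no filter on low counts (22.9%) and with globin genes removed (27%), only Cd163 was called.

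**Figure D1:**
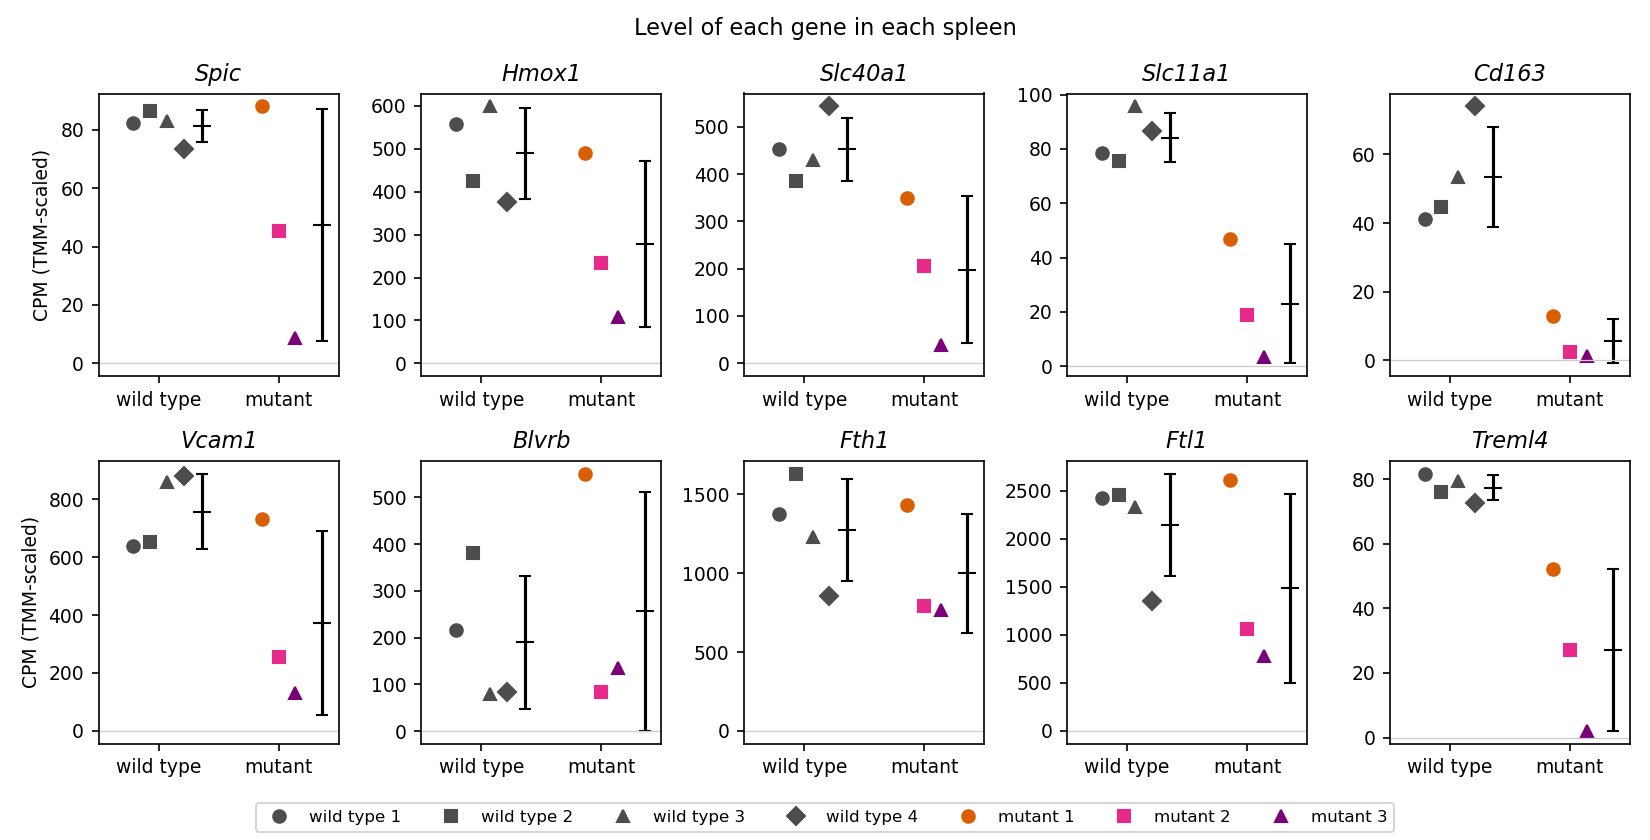
Level of each of the 10 genes in CPM after TMM scaling, 1 panel per gene, with 4 wild-type spleens in grey, 3 mutant spleens in colour and the group mean ± SD beside them. Mutant 1 lies near the wild-type points in most panels and mutant 3 is the lowest spleen for 9 of the 10 genes.

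Depth was 26889712 to 63612532 counts per library. The targeted gene gave no check of the labels, because a count over the whole of Brca1 cannot show the loss of some exons. Its groups overlapped, and the difference was 0.44 on the log2 scale (SE 0.51, adjusted p = 0.49, edgeR). All 17 genes of a list of macrophage identity, among them Csf1r, the macrophage growth factor receptor, and Emr1, which encodes F4/80, had counts in each of the 7 libraries. In these whole spleens, fewer cells of a type, less RNA per cell and a larger share of RNA from other cells cannot be told apart. CPM, counts scaled to a common library size with TMM factors, is given for mutant spleens 1, 2 and 3 and then wild-type spleens 1 to 4.

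Spic (chr10:88675270-88683023, minus strand, mm10), the transcription factor that red pulp macrophages need to form, stood at 88.0, 45.3 and 8.66 CPM in the mutants. In wild type it stood at 82.4, 86.3, 83.0 and 73.3 CPM. Mutant 1 was the highest of all 7 spleens and mutant 3 the lowest, so the groups overlapped. The level varied 10.2-fold among the mutants and 1.18-fold among wild-type spleens. For Spic the log2 fold change of mutant over wild type was -0.78 (SE 0.61, adjusted p = 0.308, edgeR), and none of the 17 alternatives in processing called Spic. In mutant 3 the level rested on 266 counts, with an exact (Clopper-Pearson) 95% interval of 7.65 to 9.77 CPM that covers counting error only.

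Receptors and adhesion molecules at the surface of these cells came next. Cd163 (chr6:124304651-124330527, plus strand) stood at 13, 2.33 and 1.37 CPM in the mutants against 41.3, 44.8, 53.4 and 74.0 CPM in wild type. Every mutant spleen lay below every wild-type spleen, with mutant 1 at 24.3% of the wild-type mean and mutant 3 at 2.56%. The log2 fold change was -3.25 (SE 0.78, adjusted p = 0.00896, edgeR), and Cd163 was called in each of the 17 alternatives. It was -4.77 without mutant 1 and -2.79 without mutant 3.

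Vcam1 (chr3:116110020-116129688, minus strand) is an adhesion molecule that binds the integrin VLA-4 and is carried by red pulp macrophages and by endothelium and stroma. Its levels were 732, 256 and 129 CPM in the mutants against 638, 652, 861 and 879 CPM in wild type. Mutant 1 fell inside the wild-type range and mutants 2 and 3 lay below it. The difference in Vcam1 was -1.03 on the log2 scale (SE 0.53, adjusted p = 0.133, edgeR), and -1.88 without mutant 1 (adjusted p = 0.00315, edgeR, against a range of 0.00315 to 0.307 over the fits). Of 12 stromal and endothelial markers, 7 were called lower and 1 higher, where 28.9% and 28.5% of all genes were. The summed level of these markers was 430 to 755 CPM in the mutants against 932 to 1321 CPM in wild type. Their part in the Vcam1 level was not tested.

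Treml4 (chr17:48264295-48275358, plus strand), a TREM-like receptor of splenic macrophages and dendritic cells that binds dying cells, stood at 52.1, 27.1 and 2.08 CPM in the mutants. The wild-type spleens held 81.6, 76.0, 79.4 and 72.5 CPM. The groups did not overlap, and mutant 3 held 2.69% of the wild-type mean, from 64 counts (exact 95% interval 1.60 to 2.66 CPM). The log2 fold change of -1.51 (SE 0.81) did not pass (adjusted p = 0.143, edgeR). It passed without mutant 3, where the fold change was smaller (-0.96, adjusted p = 0.0171, edgeR), and in limma-voom (adjusted p = 0.0476), over a range of 0.0171 to 0.281. Of 9 dendritic cell markers 8 were called lower, where 28.9% of all genes were. The sum of these markers was 4.85 to 44.9 CPM in the mutants against 249 to 366 CPM in wild type, and Clec4a4 was at 0 in 1 mutant. Their part in the Treml4 level was not tested.

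Hmox1 and Blvrb, the genes of enzymes that open the heme ring and reduce its product, were not called over all 7 spleens. The log2 ratio of Hmox1 to Blvrb CPM overlapped between the groups. It was -0.17, 1.48 and -0.31 in the mutants against 1.36, 0.16, 2.92 and 2.16 in wild type. Hmox1 (chr8:75093618-75100593, plus strand), the inducible heme oxygenase that frees iron from heme, stood at 490, 235 and 109 CPM in the mutants against 557, 425, 599 and 376 CPM in wild type. Mutant 1 equalled the wild-type mean (100% of it) and mutants 2 and 3 lay below all wild-type spleens. The difference in Hmox1 was -0.82 on the log2 scale (SE 0.46, adjusted p = 0.165, edgeR), and -1.41 without mutant 1 (adjusted p = 0.0141, edgeR, range 0.0141 to 0.325).

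Blvrb (chr7:27447978-27465981, plus strand), a biliverdin and flavin reductase that is also abundant in red cells, stood at 550, 84.2 and 135 CPM in the mutants against 216, 380, 79.0 and 84.5 CPM in wild type. Mutant 1 lay above every wild-type spleen and mutants 2 and 3 lay within the wild-type range. Blvrb was the only one of the 10 with a positive log2 fold change (0.43, SE 0.77, adjusted p = 0.654, edgeR). That sign turned without mutant 1 (-0.72, adjusted p = 0.397, edgeR), and without wild-type spleens 1 and 2 together the value was 1.65 (adjusted p = 0.15, edgeR, range 0.15 to 0.954). Blvrb was high in mutant 1 and wild-type spleens 1 and 2, the same 3 spleens in which the median of 15 erythroid genes stood highest, at 2.21, 1.00 and 2.12 on the log2 scale relative to the wild-type mean. The other 4 spleens had erythroid medians of -0.06 to -1.62. None of the 15 erythroid genes (0) was called, where 28.5% of all genes were called higher and 28.9% lower. The summed level of the list was 6372 to 35348 CPM in the mutants against 4160 to 57361 CPM in wild type. Hba-a1 and Hba-a2 had the same counts in every library, so the list and its sums hold that profile more than once. The part of the erythroid genes in the Blvrb level was not tested.

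Iron leaves the macrophage through ferroportin, the only known cellular exporter of iron. Its gene, Slc40a1 (chr1:45908070-45925594, minus strand), stood at 350, 205 and 38.5 CPM in the mutants against 453, 385, 429 and 543 CPM in wild type. The groups did not overlap, with the mutants at 77.4%, 45.3% and 8.49% of the wild-type mean. The log2 fold change of -1.19 (SE 0.61) did not pass (adjusted p = 0.129, edgeR), but it was -1.79 without mutant 1 (adjusted p = 0.0451, edgeR, range 0.0451 to 0.223). Ferroportin is also made by red cell precursors, in part from a transcript without the iron-responsive element printed above, and counts per gene do not separate the forms.

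Slc11a1 (chr1:74375203-74386051, plus strand) encodes NRAMP1, which pumps iron and other divalent metals out of the phagosome. It stood at 46.9, 18.7 and 3.58 CPM in the mutants against 78.7, 75.4, 95.7 and 86.7 CPM in wild type, again with no overlap. The log2 fold change of -1.87 (SE 0.70) lay just outside the threshold (adjusted p = 0.0514, edgeR). It passed in 8 of 17 alternatives, among them DESeq2 (-1.85, adjusted p = 0.00898) and limma-voom (-2.37, adjusted p = 0.0162), over a range of 0.00872 to 0.141.

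The phagosome pump was lower relative to the exporter in each mutant. The log2 ratio of Slc11a1 to Slc40a1 CPM in the same library was -2.90, -3.46 and -3.42 in the mutants against -2.52, -2.35, -2.16 and -2.65 in wild type, a mean of -3.26 ± 0.31 (SD, n = 3) against -2.42 ± 0.21 (SD, n = 4). The groups do not overlap in this ratio, which was chosen after the values were seen and carries no test. Neutrophils and monocytes also express Slc11a1. Of 11 neutrophil markers 4 were called lower, a share near the 28.9% of all genes (summed level 22.1 to 667 CPM in the mutants, 700 to 1779 CPM in wild type), and of 8 monocyte markers 6 were called lower (187 to 426 CPM against 1265 to 1819 CPM), and none of these was at 0 in any mutant. Their part in the Slc11a1 level was not tested.

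Ferritin, the storage shell, is built of heavy chains that oxidise iron and light chains that help lay down the mineral core. Fth1 (heavy chain, chr19:9980600-9985111, plus strand) stood at 1433, 795 and 769 CPM in the mutants against 1374, 1631, 1233 and 853 CPM in wild type. Ftl1 (light chain, chr7:45457944-45459886, minus strand) stood at 2609, 1059 and 784 CPM in the mutants against 2428, 2459, 2335 and 1347 CPM in wild type. For both chains mutant 1 lay inside or above the wild-type range and mutants 2 and 3 lay below every wild-type spleen. On the log2 scale the differences were -0.35 for Fth1 (SE 0.30, adjusted p = 0.352, edgeR) and -0.53 for Ftl1 (SE 0.43, adjusted p = 0.324, edgeR). Without mutant 1 Ftl1 passed at -1.13 (adjusted p = 0.0149, edgeR, range 0.0149 to 0.681), while Fth1 did not pass in any of 17 alternatives and was -0.06 without wild-type spleens 1 and 2 (adjusted p = 0.904, edgeR, range 0.0782 to 0.904).

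The ratio of the chains differed among the mutants. The log2 ratio of Ftl1 to Fth1 CPM was 0.86, 0.41 and 0.03 in mutants 1 to 3 and 0.82, 0.59, 0.92 and 0.66 in wild-type spleens 1 to 4. Mutants 2 and 3 lay below the wild-type values and mutant 1 among them. Both genes have processed copies elsewhere in the genome: GENCODE M21 names 2 such loci for Fth1 and 3 for Ftl1, and 0 of these had a row of their own in the deposited tables, so how reads shared with the copies were counted is not known and both levels are uncertain to that extent. Almost all cell types make ferritin, including the lymphoid cells that fill the spleen, and these values are sums over all of them.

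**Figure D2:**
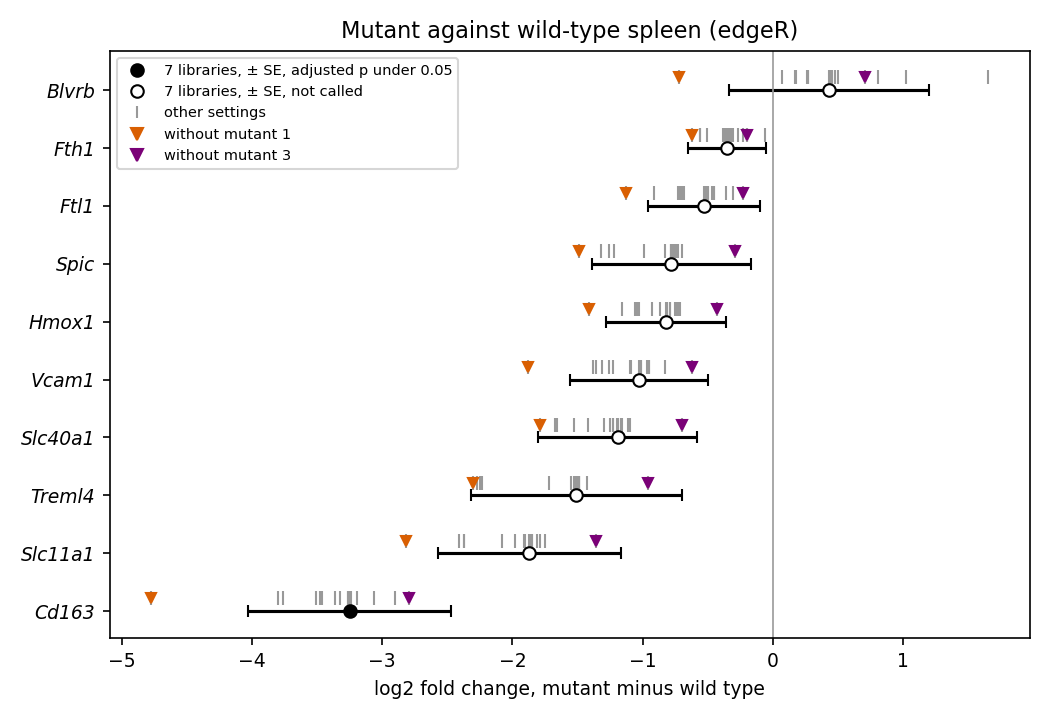
Log2 fold change of mutant over wild type for each gene, with the SE as a bar, and above it the values under the 17 other settings as ticks, with the fits that leave out mutant 1 or mutant 3 as triangles. Cd163 is the filled point at -3.25, and for each gene the fit without mutant 1 lies further left than the fit without mutant 3.

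Per kilobase of exon the order of levels in wild type ran from ferritin to the scavenger receptor. Lengths were the union of exons of protein-coding transcripts in GENCODE M21, which may differ from the gene models the authors counted on. Ftl1 stood at 2213 ± 550 CPM per kilobase, Fth1 at 817 ± 208 and Hmox1 at 312 ± 67.3 (SD, n = 4 each), with no overlap between neighbours. Vcam1 (152 ± 26.2), Blvrb (134 ± 100) and Slc40a1 (134 ± 19.7) overlapped in their ranges, as did Spic (46.1 ± 3.16) and Treml4 (44.3 ± 2.29). Slc11a1 (36.2 ± 3.90) and Cd163 (11.9 ± 3.27) followed, each below the gene before it in all 4 spleens. In wild type Spic and Treml4 were the steadiest genes, with a coefficient of variation of 6.84% and 5.18%, and Blvrb the most variable, at 74.7%. Among the mutants the lowest coefficient of variation was 37.7% (Fth1) and the highest 116% (Cd163).

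Pairs of the 10 genes differed in how alike their profiles were over the 7 spleens. As a measure, profiles of log2 CPM were centred on their mean and the root mean square difference was taken. It depends on the size of the changes as well as on their direction. Spic and Slc40a1 were the closest pair (0.27), then Fth1 and Ftl1 (0.29) and Hmox1 and Ftl1 (0.32), and Cd163 and Blvrb the most distant (2.29). Among 10874 other genes whose mean reached 5 CPM, the profile nearest to Slc40a1 was that of Sdc3 (0.16) and Cmbl (0.18), to Slc11a1 that of Lair1 (0.12) and Siglece (0.13), and to Vcam1 that of C6 and Oplah (0.13 each). Treml4 had Pira2 (0.23) and Emr1 (0.25) as nearest profiles, and Spic had Ptger4 and Kcnj10 (0.23 each). Blvrb was nearest to Fam210b (0.13) and Stom (0.16), Hmox1 to Gata2 (0.16) and Plekho2 (0.21), Fth1 to Zfp341 and Vamp8 (0.10 each), and Ftl1 to S100a1 (0.17) and Pld3 (0.20). For Cd163 the nearest were Prkce (0.34) and Klra2 (0.35). C6 and Emr1 belong to the list of macrophage genes described next.

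Of 17 macrophage identity genes, 7 were called lower and 0 higher, where 28.9% of all genes were called lower, and the list had a median log2 fold change of -1.35. The other 10 did not pass. For 12 of the 17 the mutants lay below all wild-type spleens, where 32.6% of all genes tested did, and the same held for 4 of the 10 iron recycling genes. Relative to the wild-type mean, the median of the identity list was -0.39, -1.54 and -2.56 in mutants 1 to 3, and that of the 10 iron recycling genes 0.00, -1.08 and -2.88. The summed level of the 17 was 423 to 2187 CPM in the mutants against 2928 to 3145 CPM in wild type.

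Single identity genes ranged widely. Csf1r fell from 559, 522, 572 and 604 CPM in wild type to 212, 85.0 and 18.0 CPM, a change of -2.42 on the log2 scale (SE 0.70, adjusted p = 0.0196, edgeR). Cd68, a lysosomal protein of phagocytes, also fell (-0.94, SE 0.34, adjusted p = 0.0458, edgeR). Emr1 (-1.67, SE 0.82), Mertk, a receptor for dying cells (-1.49, SE 0.63), Mrc1, the mannose receptor (-1.35, SE 0.57), and C1qa, a complement subunit (-1.06, SE 0.41), did not pass. Cd5l, a secreted protein of tissue macrophages, stood at 207, 85.0 and 40.4 CPM in the mutants against 116 to 131 CPM in wild type, with mutant 1 above each wild-type spleen (-0.15, SE 0.47). All 4 markers of marginal zone macrophages (median -3.88) were called lower, where 28.9% of all genes were. Among the 4 were Timd4 (-3.58, SE 0.51) and Marco (-2.80, SE 0.41).

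**Figure D3:**
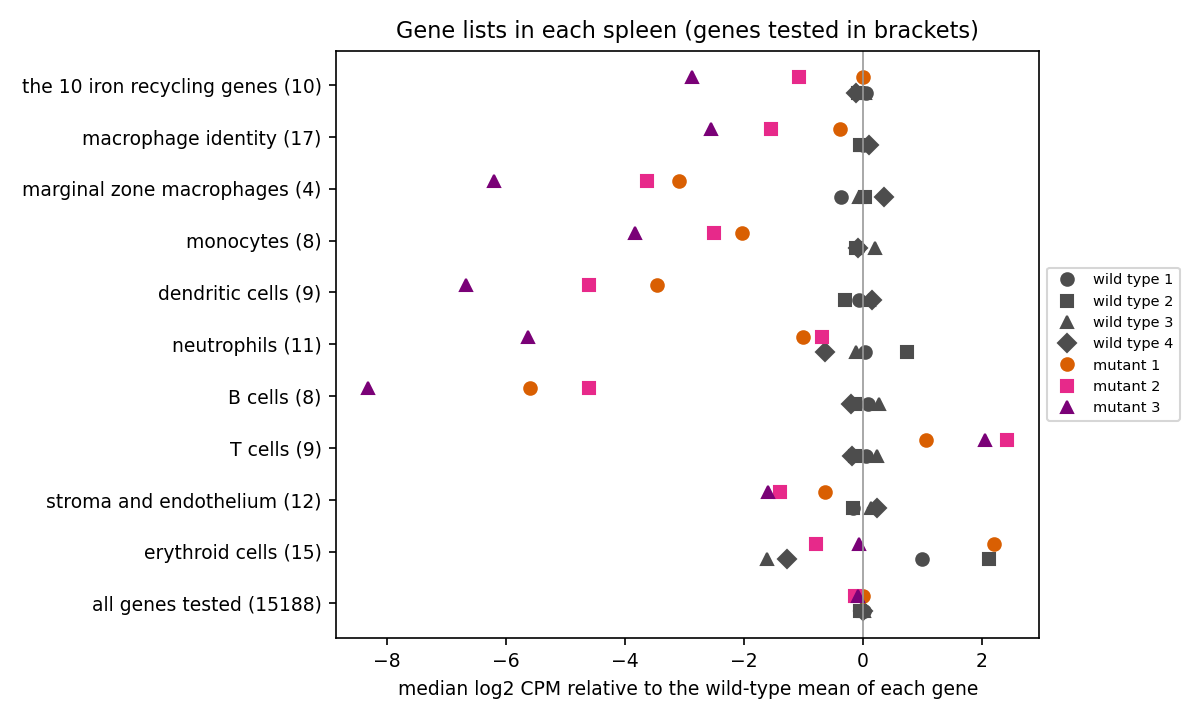
Median log2 CPM of each gene list in each spleen, relative to the wild-type mean of each gene, with wild type in grey and the 3 mutants in colour. The 10 iron recycling genes and the macrophage identity genes lie at 0.00 and -0.39 in mutant 1 and at -2.88 and -2.56 in mutant 3, while the erythroid list spreads at least as widely in wild type as in the mutants.

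Each gene was then set beside the identity list of its own library, as log2 CPM minus the list's median log2 CPM, a quantity that does not depend on library scaling. Cd163 was lower by this measure too, at -3.45, -4.67 and -4.12 in the mutants against -1.61, -1.55, -1.30 and -1.02 in wild type, a difference of -2.71. Slc11a1 (difference -1.34) and Treml4 (-1.24) also lay below wild type in all 3 mutants. For Treml4 the gap was narrow, with mutant 2 at -1.15 and wild-type spleen 4 at -1.05. The Treml4 difference was smaller than the SD of the mutants (1.30) and was -0.50 without mutant 3. The share of all genes that separate in this way was not computed, so these genes have no background beside them. Hmox1 (0.12) and Spic (-0.14) differed by less than 1 SD of the mutants and of wild type. Vcam1 (-0.20) and Slc40a1 (-0.50) lay lower, with overlap between the groups. The ferritin chains and Blvrb stood higher relative to the identity list in the mutants (Fth1 0.80, Ftl1 0.49, Blvrb 1.44), again with overlap between the groups. These values are descriptions without a test, and they turn on the reference. With Csf1r alone in its place, Cd163 was the only gene still lower in the mean (-0.85) and the other 9 stood 0.52 to 3.30 higher. On that reference the groups overlapped for Cd163. Mutant 3, with 1.37 CPM of Cd163 beside 18.0 CPM of Csf1r, lay above wild-type spleen 1, with 41.3 CPM beside 559 CPM.

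**Figure D4:**
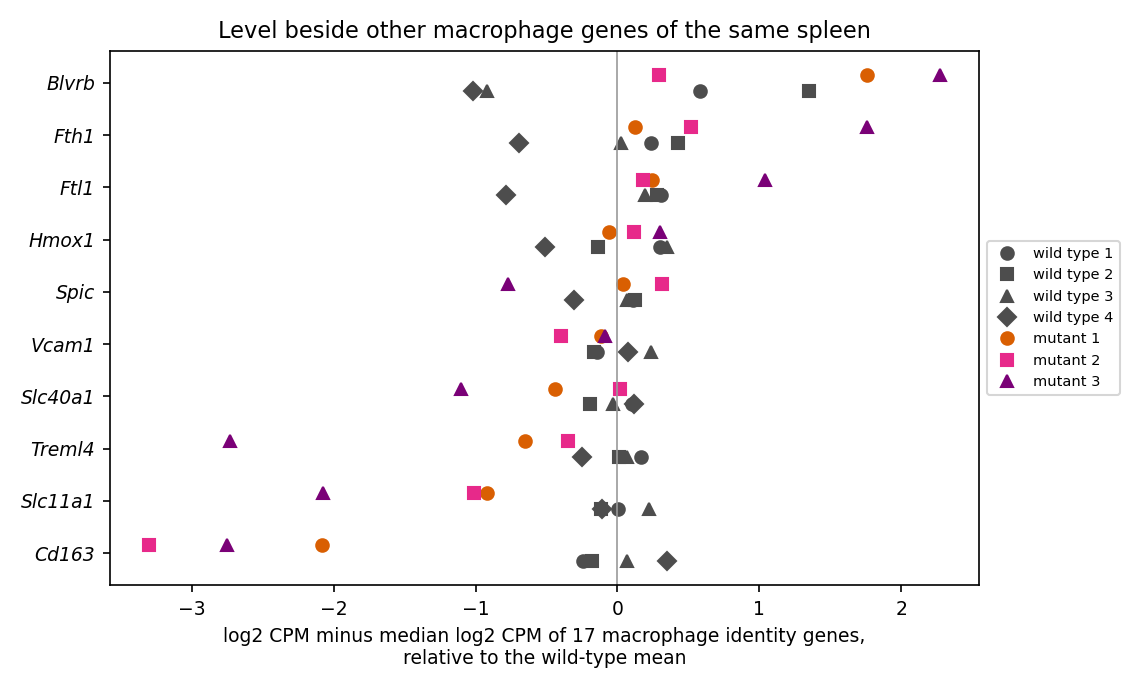
Log2 CPM of each gene minus the median log2 CPM of 17 macrophage identity genes in the same spleen, relative to the wild-type mean, with wild type in grey and mutants in colour. Cd163, Slc11a1 and Treml4 lie left of every wild-type point in the 3 mutants, and the other 7 genes overlap.

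The other genes of heme and iron handling moved in both directions. Of 39 such genes outside the 10, 37 were tested, 7 were called higher and 7 lower, with a median log2 fold change of 0.22. These shares are below the 28.5% and 28.9% over all genes. Without mutant 1 there were 10 higher and 9 lower, against 32.7% and 31.4% of genes. Ftmt (0 counts) and Hamp (18 counts in all), the gene of the hormone hepcidin that closes ferroportin, were not tested.

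In heme uptake and breakdown 1 of 10 genes rose and 1 fell, shares below the 28.5% and 28.9% over all genes. Lrp1, the receptor for heme bound to hemopexin, fell from 226, 192, 231 and 218 CPM to 146, 68.3 and 42.7 CPM (-1.34, SE 0.38, adjusted p = 0.0188, edgeR). Blvra, the main biliverdin reductase, rose slightly and evenly, from 37.4, 34.5, 32.9 and 29.8 CPM to 45.1, 42.1 and 43.7 CPM (0.37, SE 0.13, adjusted p = 0.0392, edgeR). Slc48a1, which carries heme out of the phagosome, overlapped between the groups at 196, 115 and 104 CPM against 91.1 to 254 CPM (-0.18, SE 0.38, adjusted p = 0.714, edgeR).

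In iron transport and storage 5 of 16 genes rose and 5 fell, shares near the 28.5% and 28.9% over all genes. Those that rose included Slc11a2, the divalent metal importer DMT1, at 131, 134 and 119 CPM against 59.4, 71.9, 34.6 and 35.0 CPM (1.35, SE 0.28, adjusted p = 0.00437, edgeR). Pcbp1 and Pcbp2, RNA-binding proteins that also hand iron to ferritin, rose by 1.14 (SE 0.12) and 1.33 (SE 0.24), and the metal importers Slc39a8 and Slc39a14 by 2.21 (SE 0.52) and 0.63 (SE 0.19). The 5 that fell included both ferroxidases that work with ferroportin, Cp (-1.45, SE 0.33, adjusted p = 0.00702, edgeR) and Heph (-1.44, SE 0.50), the latter at 0.586 to 0.916 CPM in the mutants against 1.10 to 3.67 CPM in wild type. Trf, the plasma iron carrier transferrin (-1.26, SE 0.32), Hfe, which acts in iron sensing (-1.48, SE 0.36), and Slc25a28, a mitochondrial iron carrier (-0.48, SE 0.17), fell as well.

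Tfrc overlapped between the groups, at 1609, 550 and 564 CPM against 405, 759, 101 and 156 CPM (1.35, SE 0.71, adjusted p = 0.14, edgeR). It was highest in mutant 1, and in wild type it was highest in spleens 1 and 2, where the erythroid list was also high. Mutants 2 and 3 did not follow that order. Their Tfrc lay above that of wild-type spleen 1, while their erythroid medians (-0.78 and -0.06) lay below its median of 1.00. The part of erythroid cells in the Tfrc level was not tested.

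Among 11 regulators of iron genes 1 rose and 1 fell, shares below the 28.5% and 28.9% over all genes. Aco1, which encodes iron-regulatory protein 1, rose from 44.8, 40.6, 42.6 and 40.8 CPM to 62.6, 49.9 and 78.4 CPM (0.59, SE 0.17, adjusted p = 0.0173, edgeR). Epas1, which encodes the hypoxia factor HIF-2 alpha, fell (-1.12, SE 0.18, adjusted p = 0.00164, edgeR). Bach1, the heme-sensing repressor of Spic and Hmox1, stood at 97.0, 97.2 and 41.7 CPM against 48.4 to 62.0 CPM, with mutant 3 below every wild-type spleen and mutants 1 and 2 above (0.56, SE 0.29, adjusted p = 0.128, edgeR). Nfe2l2, the activator NRF2 of Hmox1 and the ferritin genes, had no overlap but did not pass (0.38, SE 0.14, adjusted p = 0.0517, edgeR). Nr1h3, the nuclear receptor LXR alpha of splenic macrophages, stood at 44.4, 27.9 and 5.08 CPM against 52.5 to 67.9 CPM (-1.21, SE 0.59, adjusted p = 0.114, edgeR).

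**Figure D5:**
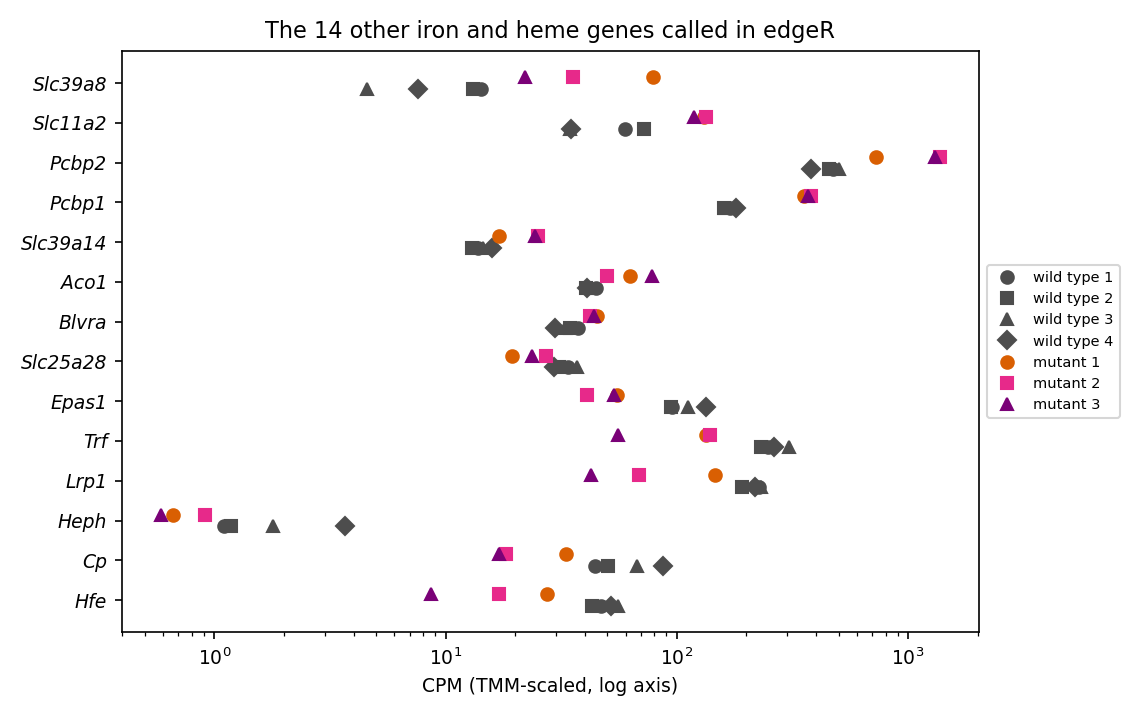
CPM on a log axis of the 14 iron and heme genes outside the 10 that were called in edgeR, with wild type in grey and mutants in colour. In 7 genes the mutants lie higher, with Slc11a2 at 119 to 134 CPM, and in 7 they lie lower.

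Lymphoid marker levels were also set beside the iron genes. Of 9 T cell genes 7 were called higher (median 1.83), where 28.5% of all genes were, among them the T lineage factors Tcf7 and Gata3. All 7 genes of a list for immature T cells were called higher too (median 6.89). In wild type, Cd8b1 and Themis of that list already stood at 57.8 to 85.7 and 23.9 to 34.4 CPM, and its other genes at 4.14 CPM or less. All 8 B cell genes were called lower (median -5.50), where 28.9% of all genes were. Cd4, the co-receptor of helper T cells, went against the T cell list at 89.2, 123 and 59.2 CPM, below the wild-type range of 128 to 185 CPM, and did not pass (-0.70, adjusted p = 0.0506, edgeR). It was named after its values were seen. The T cell genes summed to 2733 CPM in mutant 1 and to 5386 and 5196 CPM in mutants 2 and 3, beside 838 to 1134 CPM in wild type. The mutant nearest to wild type in the iron recycling genes thus had the smallest T cell sum. Mutants 2 and 3 did not follow that order. The median of the 10 genes was -1.08 in mutant 2 and -2.88 in mutant 3, whose T cell sum was slightly smaller. Whether the share of T cell RNA sets the level of these genes was not tested.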

How the data were processed

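RNA sequencing of whole spleens gave 3 mutant and 4 wild-type libraries. TopHat2 2.0.12, Subread 1.4.6 with featureCounts, edgeR, bcl2fastq 2.17.1.14 and the build mm10 are named, per the submitters' processing notes. Not given in the sources used here were their settings, any strand option and the annotation release. The values the authors deposited are raw counts of reads per gene and CPM, in which each column was the raw count column times 1 constant and values were blank for the 4455 genes without counts. Unused columns of samples numbered 0. File starts count from 0, and coordinates are given from 1.

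The raw counts were tested with edgeR 4.0.16 in R 4.3.3 (quasi-likelihood test, TMM factors, filterByExpr, group as the only term), with Benjamini-Hochberg adjustment over all 15188 genes tested. The fit was tested first on simulated data in which all genes and both groups shared 1 value of spread beyond counting error. The wider spread of the mutants seen here was not simulated. Positive log2 fold changes mean a higher level in the mutant. Each SE was derived from the fold change and its F statistic. CPM values use the TMM factors of this fit, and log2 CPM a prior count of 2. The 17 alternatives were RLE size factors, library size alone, no filter, globin genes removed, the replicate number as a block, each library left out, wild type 1 and 2 left out, DESeq2 1.42.0, limma-voom (limma 3.58.1), edgeR's exact test and limma-trend on the deposited CPM (log2, pseudocount 1). The genes and lists were chosen with earlier results of these data known. Named were the 10 genes, the called and some preset genes of 3 iron lists, preset macrophage genes, and for each of the 10 the 2 nearest profiles without clone names; of the other lists up to 2 genes by smallest p. Adgre1 was found as Emr1, and of the erythroid list Ahsp had no match.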

Additional observations from a re-analysis of the deposited data

Results flagged for a closer look

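Ftl1 in wild-type spleen 4 stood at 1347 CPM, apart from the other wild-type spleens at 2335 to 2459 CPM. The gap to the nearest of them was 0.889 of the group's range, above Dixon's 95% critical value for 4 samples. The same check was run on all 10 genes in wild type, and chance alone singles out about 1 in 20 groups. Fth1 was also lowest in that spleen within wild type, at 853 CPM, and the erythroid median there was -1.28. Wild-type spleen 3 had a lower erythroid median still, -1.62, with Ftl1 at 2335 CPM and Fth1 at 1233 CPM. Groups of 3 were not checked in this way.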

How the results depend on the processing

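The direction of each of the 10 genes held under all 17 alternatives except for Blvrb, which turned to -0.72 without mutant 1 (-0.72 to 1.02 with 1 library left out). The count of the 10 called lower was 1, and it was 2 with RLE size factors, library size alone, DESeq2, edgeR's exact test and limma on the deposited CPM, 4 with limma-voom, and 1 to 6 when 1 library was left out (6 without mutant 1, 3 without mutant 3). None of the 10 (0) was called higher under any alternative. Of the other iron genes, 7 were called higher and 7 lower. With library size alone 4 were higher (20.8% of all genes), with the replicate block 4 were higher (19.8%) and 4 lower (20.9%), and with 1 library left out 5 to 10 were higher and 6 to 9 lower. Library size alone moved the median of all genes to -0.26 and the share of higher genes among those called from 49.7% to 38.1%.

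With Csf1r as the reference in place of the macrophage identity list, the difference of mutant from wild type was 1.72 for Spic, 1.98 for Hmox1, 1.36 for Slc40a1, 0.52 for Slc11a1, -0.85 for Cd163, 1.66 for Vcam1, 3.30 for Blvrb, 2.66 for Fth1, 2.35 for Ftl1 and 0.61 for Treml4. Csf1r itself had a log2 fold change of -2.42, beside a list median of -1.35. With a prior count of 0.5 the difference of Klra2 from Cd163 was 0.42 in place of 0.35. Same-numbered spleens did not deviate together (correlations over genes of 0.0421, -0.186 and 0.101), so the numbers are not taken to pair them. The replicate block kept 1 of the 10 genes called (Cd163) and called 3108 genes lower and 2945 higher in all, against 4390 and 4334. Depth did not limit the 10 genes, since the lowest count was 42 (Cd163 in mutant 3, exact 95% interval 0.986 to 1.85 CPM). An exact permutation test of 3 against 4 cannot give a two-sided p below 0.0571, and none was used.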
